A study of Mus musculus with 28 samples.

Results

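Pituitary transcripts of 10 feedback inhibitors of MAP kinase signalling were followed across restraint and sleep loss in both sexes. The list holds the dual specificity phosphatases Dusp1, Dusp2, Dusp4, Dusp5, Dusp6 and Dusp14, the Sprouty genes Spry1, Spry2 and Spry4, and Errfi1. Each was taken by its symbol, and each is 1 of the 32594 rows of the gene count table. Whole pituitary glands came from 28 C57BL/6J mice (8 weeks old by the labels, given in the study's methods as the age on arrival), of which 16 were female and 12 male. Mice stayed in the home cage (control), were restrained for 20 min, had 12 h of paradoxical sleep deprivation (PSD), or had PSD and later restraint (PSD + restraint). In PSD a mouse stands on a small platform over water, and the loss of muscle tone that comes with REM sleep wakes it. By the study's methods, mice of every group, controls included, were first accustomed to this procedure in short daily sessions. Glands were taken 18 h after PSD ended, and from restrained mice 10 min after restraint ended. Each of the 4 female groups held 4 mice, and the males were 4 controls, 2 restrained mice (mice 2 and 3), 3 PSD mice and 3 PSD + restraint mice. A gland holds all lobes and cell types, so fewer cells of a type and less RNA per cell cannot be told apart in any value given here.

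Counts on genes came to between 14024465 and 52948531 for a mouse (median 33389717). Levels are given as CPM, counts scaled to a common library size by TMM, with mice of a group in the order of their numbers. A gene is called when the adjusted p of edgeR's quasi-likelihood test (Benjamini-Hochberg) is at most 0.05 and the log2 fold change is 0.32 or more in either direction, and every adjusted p below comes from that test over all genes. All 10 genes passed the filter on low counts in females, in males and in all mice together. Hormone genes marked every gland as pituitary, with Gh and Ghrhr summing to 60059.6 CPM or more in every mouse.

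MAP kinase cascades carry signals from receptors at the cell surface to the nucleus. In the best known of them, RAS activates the kinases RAF, MEK and ERK in turn, and ERK switches on immediate early genes, some of which encode inhibitors of the same cascade. Dual specificity phosphatases remove the activating phosphates from MAP kinases. Sprouty proteins act further up, between receptor tyrosine kinases and ERK, and ERRFI1 (MIG6) binds the kinase domain of the epidermal growth factor receptor and blocks it. In pituitary cells, GnRH in gonadotropes and CRF in corticotropes are among the hormones known to engage ERK.

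Promoters of the genes are shown first because 3 of them carry elements through which cAMP or ERK signals are known to reach immediate early genes. RefSeq (GRCm38.p6) gave promoter sequence for 8 of the 10 genes, from 250 bases before to 50 bases after the start of transcription, with 2 starts for Errfi1. Dusp4 and Spry4 had no entry. Both strands were searched for the cAMP response element (CRE) TGACGTCA, its core TGACG (which each full CRE holds on both strands), the CArG box bound by serum response factor, the AP-1 site TGACTCA or TGAGTCA, and the EGR site GCGTGGGCG or GCGGGGGCG. The full CRE lay in the promoter of Dusp1 and before the downstream start of Errfi1, and is found in 1.79% of 32851 promoters of the same length. Dusp5 had 2 adjoining CArG boxes, where 1.63% of promoters have any and 0.0183%, or 6 promoters, have at least 2. The stretches run 5′ to 3′ in the direction of the gene, with the full CREs, the further core of Dusp1 and the CArG boxes in capitals, and come from chr17:26508593-26508678 (minus strand) for Dusp1, chr4:150855004-150855069 (plus strand) for Errfi1 and chr19:53529048-53529097 (plus strand) for Dusp5.
Dusp1: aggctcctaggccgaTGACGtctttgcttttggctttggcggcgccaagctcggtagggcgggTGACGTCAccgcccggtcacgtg
Errfi1: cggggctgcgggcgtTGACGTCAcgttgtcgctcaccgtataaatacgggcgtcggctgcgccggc
Dusp5: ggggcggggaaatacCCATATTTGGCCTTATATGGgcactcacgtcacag

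Counted back from -1, the last base before the start, the full CRE spans -143 to -136 in Dusp1 and -51 to -44 in Errfi1. A further CRE core lies at -191 to -187 in Dusp1, and the CArG boxes of Dusp5 span -82 to -73 and -72 to -63. The CRE core alone is common, in 20.8% of promoters, and was also present in Dusp2 and Dusp5. Dusp2 carried the EGR site, which 3.47% of promoters have, and no gene of the list carried the AP-1 site, which 5.2% have. Dusp6, Dusp14, Spry1 and Spry2 held none of the 5 in this window. A match describes letters only, and factor binding was not measured.

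In control glands the 10 genes spanned a wide range of levels per length, here CPM per kb of the mean coding transcript length in GENCODE M21. Dusp14 stood at 33.2 ± 2.86 (SD, n = 4) in females and 28 ± 6.44 (SD, n = 4) in males, and Dusp1 at 29.7 ± 9.37 and 12.8 ± 5.95. A middle band of Errfi1, Spry1, Spry2 and Dusp6 lay between 5.19 and 6.83 in females and between 5.27 and 6.21 in males. Dusp5, Spry4, Dusp4 and Dusp2 came last, at 0.980 ± 0.0983, 0.904 ± 0.163, 0.450 ± 0.134 and 0.421 ± 0.425 in females. Dusp2 had between 6 and 83 counts per mouse, so its values carry the largest counting error of the list.

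**Figure D1:**
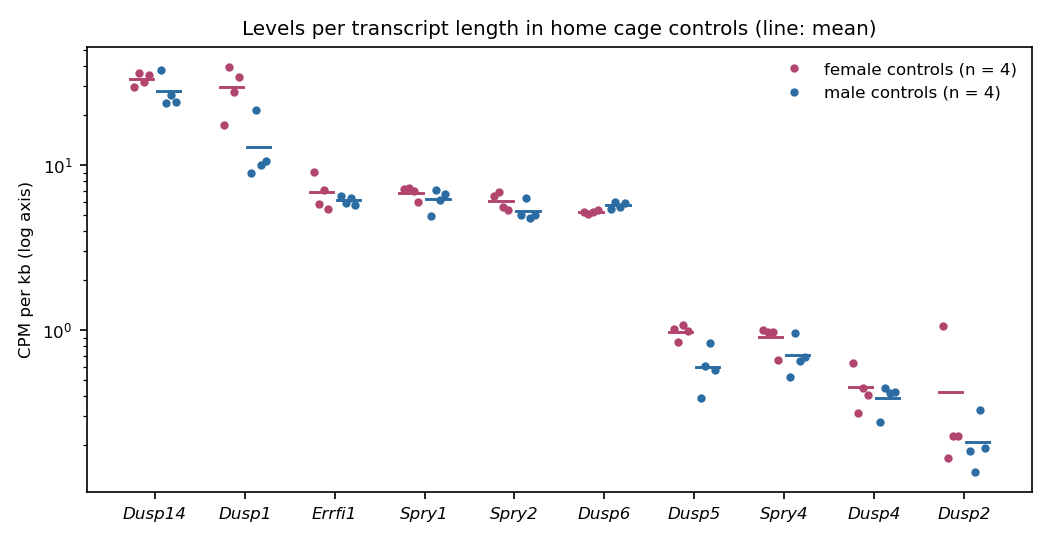
Levels of the 10 genes in home cage control females and males, as CPM per kb of transcript on a log axis, with 1 point per mouse (n = 4 per sex) and a line at each mean. Dusp14 and Dusp1 lie above the others, and Dusp5, Spry4, Dusp4 and Dusp2 lie at or below about 1 CPM per kb.

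Restraint, with or without earlier PSD, raised a core of these inhibitors in both sexes, and no gene of the list was called lower in any comparison against controls. In females, 3 of the 10 genes were called higher after restraint (Dusp14, Dusp5 and Spry4), where 0.482% of all genes tested were called higher. After PSD + restraint, 6 of 10 were called higher (those 3 with Errfi1, Dusp4 and Dusp6), against 1.53% of all genes. In males, 4 of 10 were called higher after restraint (Dusp1, Errfi1, Dusp5 and Dusp14), against 0.29% of genes, and 7 of 10 after PSD + restraint (those 4 with Dusp2, Dusp4 and Spry4), against 1.92%. Treated mice lay wholly above the controls for 5 of the 10 genes in restrained females, 7 in PSD + restraint females, and 6 in each of these male groups, where the same was true of 2.76%, 6.82%, 6.34% and 6.97% of all genes. The median log2 fold change of the 10 genes was 0.48 after restraint and 0.97 after PSD + restraint in females, and 0.74 and 1.39 in males, while the medians of all genes lay within 0.01 of 0. In a single model of all mice with sex as a term, 4 of 10 rose after restraint (Dusp14, Errfi1, Dusp5 and Spry4; 0.935% of genes) and 9 of 10 after PSD + restraint, all but Spry2 (4.1% of genes). In that model the call of Spry4 after restraint was lost without female restrained mouse 2 (log2 0.62, adjusted p = 0.0648). After PSD + restraint, Dusp1 (log2 1.49, adjusted p = 0.0451) and Dusp2 (log2 1, adjusted p = 0.0451) kept their calls in 15 and 16 of 28 fits with 1 mouse left out (adjusted p up to 0.142 and 0.155), and the other 7 genes in all 28. Dusp1 was lost without any male control, female control 1 or 3, female PSD + restraint mouse 1 or 2, male PSD + restraint mouse 2 or 3, male PSD mouse 2 or 3 or male restrained mouse 3. Dusp2 was lost without female control 2, 3 or 4, male control 1, 2 or 4, female PSD + restraint mouse 2 or 4, male PSD + restraint mouse 1 or 2, male PSD mouse 3 or female restrained mouse 1.

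**Figure D2:**
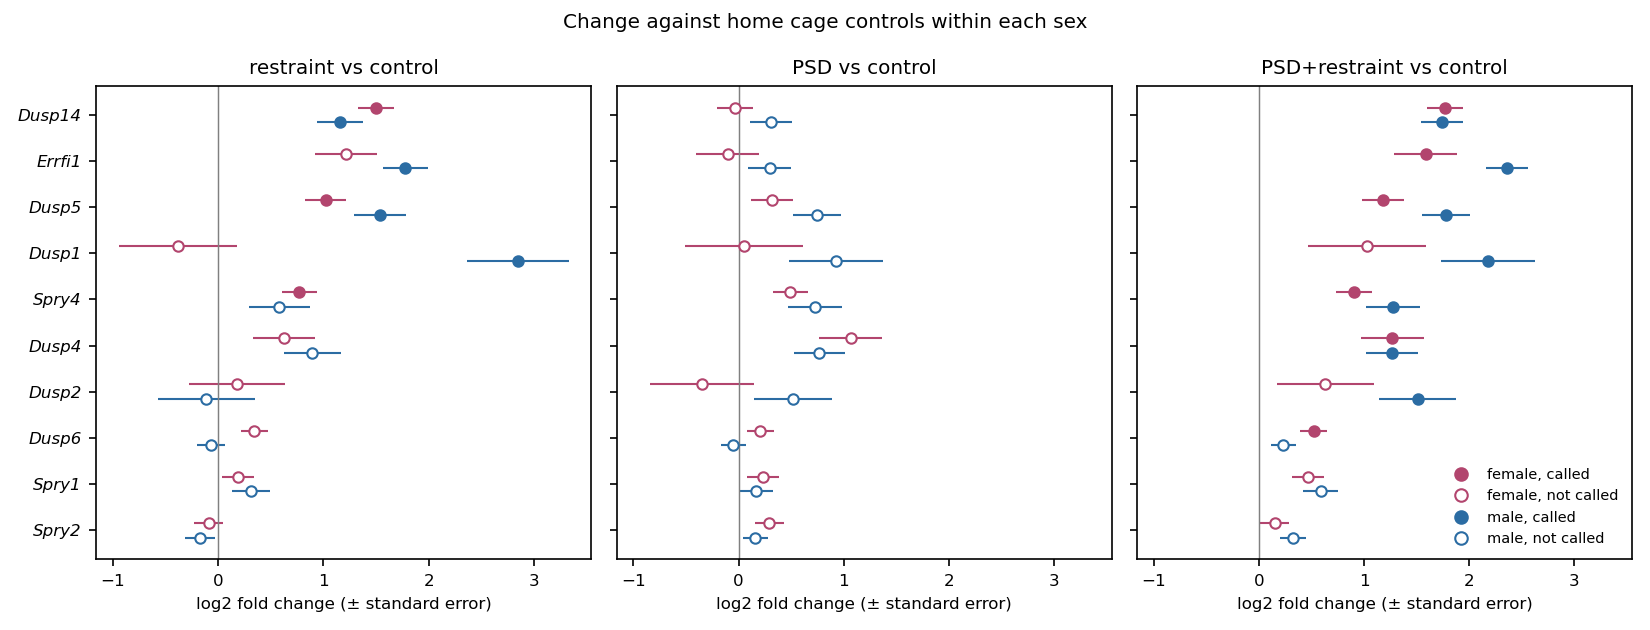
Log2 fold change against home cage controls of the same sex after restraint, PSD and PSD + restraint, with standard errors, from edgeR; filled points are called and open points are not. Dusp14, Dusp5 and Errfi1 lie to the right of 0 in both panels with restraint, and no point of the PSD panel is filled.

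Dusp14 (chromosome 11, 84048033 to 84069256, GRCm38) encodes a small atypical phosphatase that lacks the kinase docking domain of the classical MAP kinase phosphatases. Control females had 37.4, 45.1, 39.9 and 43.9 CPM, restrained females 103, 123, 83.4 and 159 CPM, and PSD + restraint females 176, 115, 156 and 117 CPM. PSD females had 35.7 to 45.1 CPM, overlapping the controls, and all 8 restrained females lay above all 8 others. The rise was 2.83-fold after restraint (log2 1.5, standard error (SE) 0.17, adjusted p = 0.000318) and 3.40-fold after PSD + restraint (log2 1.77, SE 0.17, adjusted p = 6.66e-05). In males, controls had 47.0, 29.7, 33.4 and 30.4 CPM, restrained mice 63.0 and 93.2 CPM, and PSD + restraint mice 107, 142 and 102 CPM, again with no overlap. The male log2 fold changes were 1.16 (SE 0.22, adjusted p = 0.0483) after restraint and 1.74 (SE 0.20, adjusted p = 0.000817) after PSD + restraint. The first of these rested on few animals: it stayed called in 4 of 12 fits with 1 male left out and was lost without restrained mouse 2 or 3, control 2, 3 or 4, PSD + restraint mouse 1 or 3, or PSD mouse 1 (log2 0.85 to 1.41, adjusted p 0.0114 to 0.583). The other 3 values were called in every such fit.

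Dusp5 (chromosome 19, 53529145 to 53541809) encodes a nuclear phosphatase that acts on ERK and not on the stress kinases p38 and JNK. Control females had 2.51, 2.08, 2.65 and 2.45 CPM, restrained females 4.75, 6.20, 3.15 and 5.53 CPM, and PSD + restraint females 6.86, 4.94, 5.21 and 5.07 CPM. Its log2 fold change was 1.02 (SE 0.20, adjusted p = 0.0235) after restraint and 1.18 (SE 0.20, adjusted p = 0.00498) after PSD + restraint, with no overlap of either group with the controls. Male controls had 0.955, 1.5, 2.06 and 1.42 CPM, restrained males 3.65 and 4.80 CPM, and PSD + restraint males 5.40, 5.51 and 4.03 CPM. Every restrained male thus lay above every male without restraint, since the PSD males had 2.25, 2.19 and 2.87 CPM. The male log2 fold changes were 1.54 (SE 0.25, adjusted p = 0.0177) and 1.78 (SE 0.23, adjusted p = 0.00146). After PSD + restraint both sexes kept the call with any mouse left out. After restraint the call was lost in females without any of the controls or restrained mouse 1, 2 or 4 (log2 0.89 to 1.18, adjusted p up to 0.0983), and in males without restrained mouse 2 or 3 or control 2 or 4 (log2 1.33 to 1.73, adjusted p up to 0.323).

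Errfi1 (chromosome 4, 150853796 to 150868889) rose in PSD + restraint mice of both sexes and in restrained males. Female controls had 27.5, 17.8, 21.3 and 16.5 CPM, restrained females 35.3, 54.8, 37.8 and 64.5 CPM, and PSD + restraint females 110, 39.2, 66.0 and 35.9 CPM. Both restrained groups lay wholly above the controls, and the test called the second (log2 1.58, SE 0.30, adjusted p = 0.00954) but not the first (log2 1.21, SE 0.29, adjusted p = 0.0821). Without the PSD + restraint female at 110 CPM, mouse 1, which enters the shared estimate of the spread, the first was called too (log2 1.21, adjusted p = 0.0143). Male controls were tight, at 19.7, 17.9, 19.3 and 17.4 CPM, while restrained males had 46.6 and 80.5 CPM and PSD + restraint males 69.8, 125 and 89.7 CPM. These were rises of 3.43-fold (log2 1.78, SE 0.21, adjusted p = 0.00297) and 5.12-fold (log2 2.36, SE 0.20, adjusted p = 0.000117), the first of which was lost without restrained mouse 3 (log2 1.34, adjusted p = 0.0694).

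Dusp1 (chromosome 17, 26505591 to 26508472), the immediate early phosphatase that acts on p38, JNK and ERK, varied widely between mice of a group. Male controls had 16.1, 38.9, 18.0 and 18.9 CPM, restrained males 246 and 84.7 CPM, and PSD + restraint males 51.6, 107 and 155 CPM. No restrained male overlapped the controls, and Dusp1 rose 7.21-fold after restraint (log2 2.85, SE 0.48, adjusted p = 0.0269) and 4.53-fold after PSD + restraint (log2 2.18, SE 0.45, adjusted p = 0.0228). Without restrained mouse 2, at 246 CPM, the first value was log2 1.89 (adjusted p = 0.574), and the call was also lost without control 1, 3 or 4 (adjusted p up to 0.122). The second was lost without PSD + restraint mouse 2 or 3 or control 3 or 4 (log2 1.78 to 2.56, adjusted p up to 0.0827). Females did not follow the same order, with 31.4, 70.4, 49.9 and 61.5 CPM in controls, 35.4, 38.9, 45.5 and 42.4 CPM after restraint, and 137, 213, 53.1 and 26.2 CPM after PSD + restraint. Their log2 fold changes were -0.38 (SE 0.56, adjusted p = 0.919) and 1.03 (SE 0.56, adjusted p = 0.319), and the PSD + restraint females lay on both sides of the control range.

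Dusp4 (chromosome 8, 34807610 to 34819894) and Dusp2 (chromosome 2, 127336159 to 127338377) encode further inducible nuclear phosphatases, and Dusp6 (chromosome 10, 99263231 to 99267489) the cytoplasmic phosphatase of ERK. Dusp4 had 1.73, 0.860, 1.22 and 1.11 CPM in control females and 2.83, 2.84, 2.99 and 3.37 CPM after PSD + restraint, a 2.41-fold rise with no overlap (log2 1.27, SE 0.30, adjusted p = 0.0333). In males it went from 0.764, 1.22, 1.14 and 1.15 CPM to 2.32, 3.55 and 1.67 CPM (log2 1.27, SE 0.24, adjusted p = 0.0174). The female call was lost without any of the PSD + restraint mice or control 2, 3 or 4 (adjusted p up to 0.11), and the male call without PSD + restraint mouse 1 or 2 (adjusted p up to 0.0961). After restraint alone Dusp4 was not called (in females log2 0.62, adjusted p = 0.516, and in males log2 0.90, adjusted p = 0.472). Dusp6 was level among control females, at 13.4, 13, 13.4 and 13.7 CPM, and stood at 19.4, 19.5, 16.6 and 21.0 CPM after PSD + restraint (log2 0.52, SE 0.13, adjusted p = 0.0393). The Dusp6 call held in 7 of 16 fits with 1 female left out and was lost without any control, PSD + restraint mouse 1, 2 or 4, restrained mouse 1 or PSD mouse 3 (log2 0.46 to 0.58, adjusted p up to 0.105). Its male value was 0.23 (SE 0.12, adjusted p = 0.343), called only without PSD + restraint mouse 3 (log2 0.38, adjusted p = 0.049). Dusp2 was called in PSD + restraint males alone, at 1.45, 0.688 and 0.620 CPM against 0.297, 0.223, 0.533 and 0.312 CPM in controls (log2 1.51, SE 0.36, adjusted p = 0.0453), and that call held in only 2 of 12 fits with 1 male left out, those without control 3 or PSD + restraint mouse 3 (log2 0.98 to 1.76, adjusted p up to 0.287). Female controls had 1.71, 0.271, 0.370 and 0.371 CPM of Dusp2 and PSD + restraint females 0.820, 1.14, 1.07 and 1.39 CPM (log2 0.63, SE 0.46, adjusted p = 0.467), and without control 1, the high one, the female difference was called as well (log2 1.68, adjusted p = 0.0165).

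Of the 3 Sprouty genes, Spry4 alone was called within a sex. Control females had 4.78, 4.66, 4.62 and 3.14 CPM of Spry4, restrained females 8.13, 9.31, 5.45 and 6.14 CPM, and PSD + restraint females 8.12, 7.69, 8.26 and 7.91 CPM. No treated female of either group overlapped the controls, with log2 fold changes of 0.77 (SE 0.17, adjusted p = 0.0459) and 0.90 (SE 0.17, adjusted p = 0.00945). The call after restraint held in 2 of 16 fits with 1 female left out, those without restrained mouse 3 or PSD mouse 1 (log2 0.63 to 0.88, adjusted p up to 0.147), and the call after PSD + restraint in all 16. In males Spry4 had 2.48, 4.59, 3.09 and 3.27 CPM in controls and 8.92, 10.8 and 4.15 CPM after PSD + restraint (log2 1.27, SE 0.26, adjusted p = 0.0215), where PSD + restraint mouse 3 fell within the control range. This call was lost without PSD + restraint mouse 1 or 2 or control 3 or 4 (log2 1 to 1.56, adjusted p up to 0.117). Spry1 (chromosome 3, 37639947 to 37644599) after PSD + restraint had log2 fold changes of 0.46 (SE 0.15, adjusted p = 0.105) in females and 0.59 (SE 0.16, adjusted p = 0.0815) in males, and was called in the model of all mice (log2 0.52, SE 0.11, adjusted p = 0.00374). Without PSD + restraint mouse 3, Spry1 was called in males too (log2 0.78, adjusted p = 0.00939). Spry2 (chromosome 14, 105891947 to 105896819), at 9.05 to 17.4 CPM over all 28 mice, was called in none of the comparisons against controls, with 0.22 (SE 0.10, adjusted p = 0.138) after PSD + restraint in all mice.

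**Figure D3:**
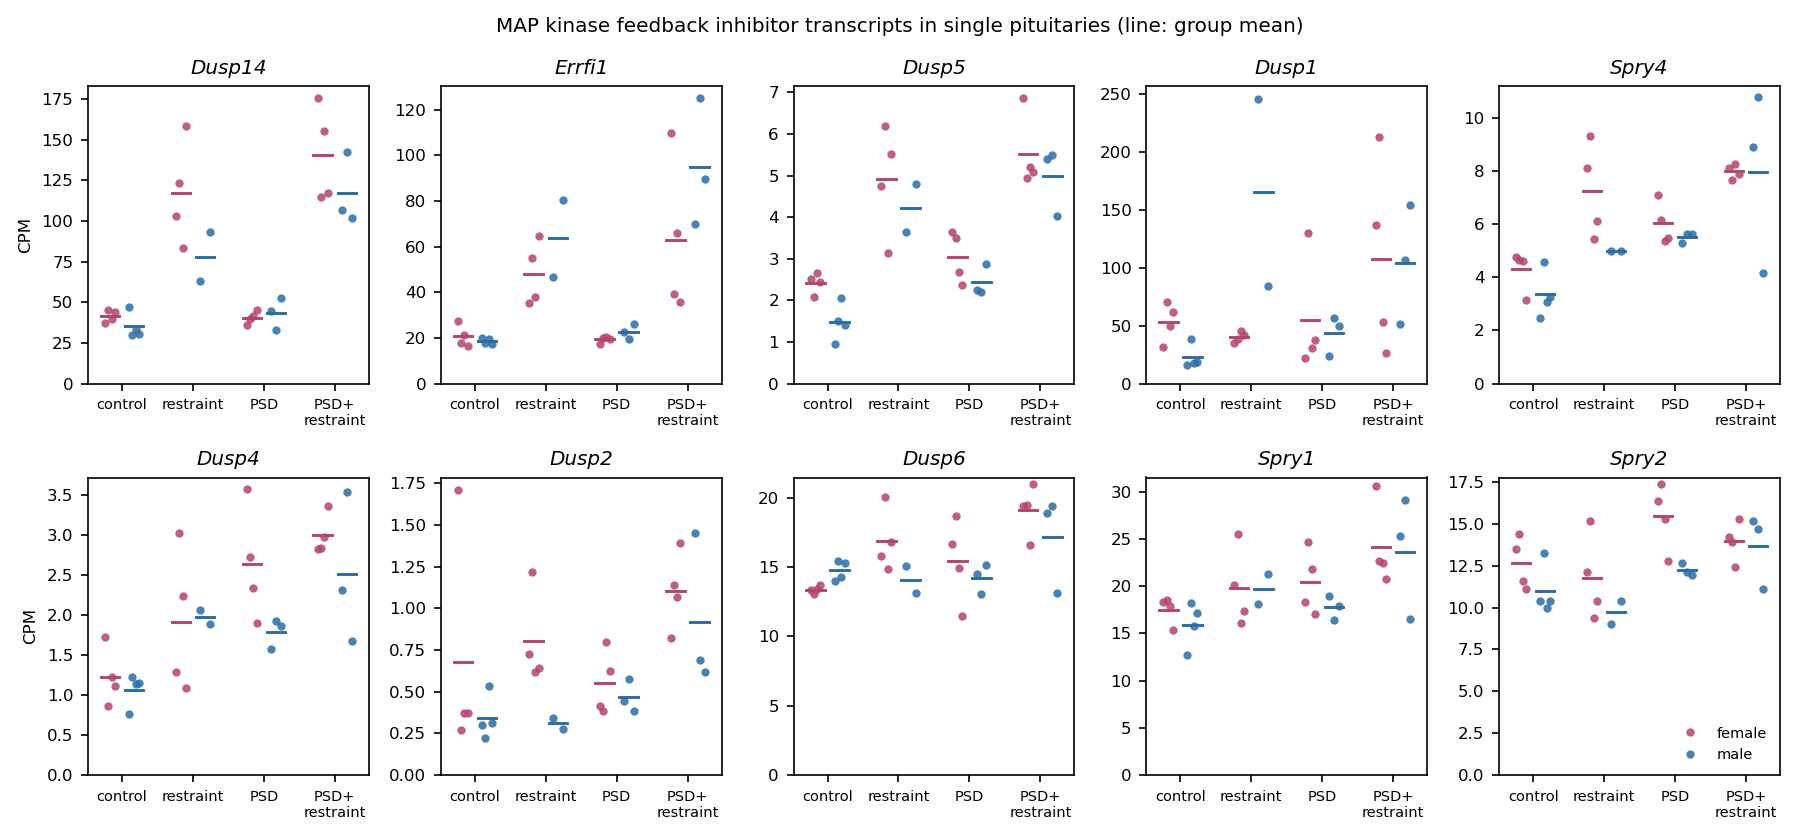
CPM of each gene in every pituitary by treatment, females and males side by side, with 1 point per mouse and a line at the group mean. Dusp14 sits between 83.4 and 176 CPM in restrained females and between 29.7 and 52.8 CPM in males without restraint, and Dusp1 spreads from 26.2 to 213 CPM within the PSD + restraint females.

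Ordered by group mean, the 4 groups with restraint stood above the 4 without it for Dusp14, Errfi1 and Dusp5. For Dusp14 the order was PSD + restraint females, restrained females and PSD + restraint males, which overlapped, and then restrained males. Restrained males (63.0 to 93.2 CPM) lay apart from their neighbours in this order, PSD + restraint males and PSD males. They did overlap restrained females (83.4 to 159 CPM). For Errfi1 the 2 male groups with restraint came first, and the only gap between neighbours lay between restrained females and PSD males. For Dusp5 neighbours lay apart between restrained males and PSD females, by 3.65 against 3.64 CPM, and between female and male controls, while restrained females, down to 3.15 CPM, overlapped PSD females. Spry4 ran in another order, with PSD females and PSD males above restrained males. For the other 6 genes every group overlapped its neighbours.

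After PSD alone, Dusp4 and Spry4 stood above all controls of their sex in every female and male. None of the 10 was called in females or in males by edgeR, with 2 and 3 of them at an unadjusted p under 0.05 (19.8% and 8.85% of all genes), while edgeR called 0.0277% and 0.00547% of all genes. DESeq2 called 1 of the 10 (Dusp4) in females and 0 in males, and 2.2% and 0.41% of all genes. Dusp4 had 3.58, 2.73, 2.34 and 1.90 CPM in PSD females, all above the controls (log2 1.06, SE 0.30, adjusted p = 0.124, and 0.0484 without PSD mouse 4), and 1.58, 1.93 and 1.87 CPM in PSD males, also above theirs (log2 0.77, SE 0.24, adjusted p = 0.397). Spry4 had 7.12, 6.17, 5.37 and 5.49 CPM in PSD females (log2 0.49, adjusted p = 0.144) and 5.29, 5.63 and 5.64 CPM in PSD males (log2 0.73, adjusted p = 0.449). In males the same held for Dusp5 (log2 0.74, adjusted p = 0.382). Groups lay apart in this way, with PSD higher, in 3.83% of genes tested in females and 4.69% in males. With all mice together Dusp4 was called (log2 0.93, SE 0.20, adjusted p = 0.0297), where 0.565% of genes were called higher, and Spry4 was not (log2 0.60, SE 0.16, adjusted p = 0.0644), unless female control 1, female PSD mouse 4, male control 2 or male PSD + restraint mouse 2 or 3 was left out. The Dusp4 call was lost without female PSD mouse 1, 2 or 3, female control 2 or 4 or male PSD mouse 2 (log2 0.81 to 1.02, adjusted p up to 0.0761).

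Set against PSD mice, PSD + restraint mice had more Dusp14 and Errfi1 in both sexes. Dusp14 differed by log2 1.80 (SE 0.17, adjusted p = 7.03e-05) in females and 1.43 (SE 0.21, adjusted p = 0.0153) in males, and Errfi1 by 1.69 (SE 0.30, adjusted p = 0.0104) and 2.06 (SE 0.22, adjusted p = 0.00311). These were 2 of 10 genes in each sex, where 0.814% and 0.257% of all genes were called higher. The male Dusp14 value was lost without PSD + restraint mouse 1 or 2 or PSD mouse 1 or 2 (log2 1.26 to 1.59, adjusted p up to 0.0977). Dusp5 was 0.86 (SE 0.20, adjusted p = 0.0504) in females, called without restrained mouse 2 or 3 (adjusted p = 0.0454 and 0.0144), and 1.04 in males (SE 0.24, adjusted p = 0.114), called without control 1 (adjusted p = 0.036). It was called in all mice (log2 0.94, SE 0.16, adjusted p = 0.000783), where 3 of the 10 genes and 1.41% of all genes were called higher.

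Between restrained mice with and without PSD, edgeR called 0 of the 10 genes in females, males or all mice, with 2, 5 and 6 of them at an unadjusted p under 0.05 (14.1%, 10.5% and 13.5% of all genes), and DESeq2 also called 0. The called shares of all genes were 0.0332%, 0.00547% and 0.0951% by edgeR and 0.509%, 0.613% and 0.317% by DESeq2. In the model of all mice the log2 differences of the 10 genes ran from 0.21 to 0.82, where the median of all genes was -0.000455. Within males the group mean of Dusp1 went the other way, at 165 CPM after restraint and 104 CPM after PSD + restraint, with overlapping ranges. Whether PSD changed the response to restraint was tested as an interaction over all mice. None of the 10 genes was called by edgeR (0 at an unadjusted p under 0.05, where 3.92% of all genes were, and 0 by DESeq2), and 0% of all genes were called. The 95% interval of the interaction, from the normal quantile, ran from -0.18 to 0.65 for Dusp14 and from -0.18 to 0.99 for Errfi1. That of Dusp5 ran from -0.74 to 0.15, that of Dusp2 from -0.16 to 1.74 and that of Dusp1 from -1.40 to 1.37. Among these genes, the data leave room for a change of the response by 1 log2 unit for Dusp1 and Dusp2, and by nearly that for Errfi1.

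Sex made a called difference in 1 of the 10 genes among controls, where 10.7% of all genes were called in either direction. Dusp5 was 0.73 log2 units higher in control females (2.08 to 2.65 CPM) than in control males (0.955 to 2.06 CPM; SE 0.22, adjusted p = 0.0229), without overlap, where 4.94% of all genes were called higher in females. This call was lost without male control 1 or 4 or female control 4 (log2 0.56 to 0.92, adjusted p up to 0.104). Dusp1 was higher in control females by 1.21 (SE 0.55, adjusted p = 0.151). The response of the 10 genes to restraint, PSD or PSD + restraint was not called different between females and males by edgeR or DESeq2 (2, 0 and 0 genes at an unadjusted p under 0.05, against 4.25%, 10.8% and 7.2% of all genes), where edgeR called 0% of all genes and DESeq2 0%, 0.127% and 0.0528%. The widest difference was that of Dusp1 after restraint, whose log2 change was 3.24 lower in females than in males, as -3.24 (95% interval -4.88 to -1.59), with an unadjusted p of 0.000731 and an adjusted p of 1 by edgeR. It rests on 2 restrained males, and it was the 7th smallest p of all genes.

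Transcripts of other cells of the gland differed between the same groups. The 5 intermediate lobe markers (Pcsk2, Pax7, Oacyl, Esm1 and Scn2b), all counted, summed to 1316.6 to 1925.0 CPM in control females and 1891.3 to 3101.4 CPM after PSD + restraint, and to 414.1 to 1811.3 and 1878.7 to 3461.8 CPM in males, with male control 1 the lowest. Pomc, Tbx19 and Crhr1, marking corticotropes and melanotropes, summed to 36672.3 to 68290.4 CPM in control females and 70641.3 to 101596.3 CPM after PSD + restraint, and in males to 11510.9 to 63669.5 and 66336.9 to 126321 CPM. In females the intermediate lobe sums thus overlapped, and those of corticotropes and melanotropes did not. After PSD alone the latter sums were 70379 to 164629 CPM in females and 65974 to 101778 CPM in males. Female PSD + restraint mice lay apart from controls as well in Prl of lactotropes (159082.3 to 231705.4 CPM in controls, 133921.5 to 155693.8 after), in 6 posterior lobe markers (50.8 to 69.2 and 79.8 to 100.3 CPM) and in 4 macrophage markers (57.4 to 62.2 and 68.6 to 81.1 CPM), while these 3 sums overlapped in males. Of all genes, 6.82% lay apart higher and 7.56% lower in this female comparison. The 5 genes of the neuron and forebrain list (Neurod6, Slc17a7, Snap25, Syt1 and Gng7), all counted, summed to 540.0 to 597.5 CPM in control females and 615.7 to 688.0 CPM in PSD + restraint females. PSD females had 570.1 to 793.1 CPM, with mouse 1 the highest. Which cells these 5 transcripts came from was not tested. With the intermediate lobe score as a further term, 1 gene (Dusp14) stayed called in females after restraint and after PSD + restraint, at log2 1.47 (adjusted p = 0.00128) and 1.71 (adjusted p = 0.0012). The term moved the called share of all genes, in either direction, from 0.543% to 0.426% and from 2.2% to 0.487% in these comparisons. Males then kept all 4 genes after restraint and 3 of 7 after PSD + restraint (Dusp14, Dusp5 and Errfi1), and all mice kept 5 of 9 after PSD + restraint (those 3 with Dusp4 and Spry4). Over all genes the shares went from 0.296% to 0.252%, from 2.56% to 2.05% and from 5.46% to 3.19%. The lost values kept their sign: in PSD + restraint females, Errfi1 was 1.30 (adjusted p = 0.133) and Dusp5 0.89 (adjusted p = 0.0668), and Dusp4 after PSD in all mice was 0.71 (adjusted p = 0.138). The part of these cells in the changes was not tested beyond these values.

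Other genes of the pathway, in lists by role, were read in the model of all mice after PSD + restraint, where 4.1% of genes were called higher and 1.35% lower. These lists, like the 10 genes, were chosen with earlier results of these data known, so their counts are descriptive and test nothing. Of 14 genes known to be induced by ERK, transcription factor genes apart from Ier3, 10 were called higher and 0 lower, with a median log2 fold change of 1.45. Egr3, a zinc finger factor, rose by 3.19 (adjusted p = 3.33e-09), from 1.6 ± 0.319 to 12.0 ± 3.87 CPM in females (SD, n = 4) and from 0.725 ± 0.199 (SD, n = 4) to 8.50 ± 3.29 CPM (SD, n = 3) in males. Fosb, an AP-1 subunit, rose by 4.44 (adjusted p = 1.07e-08) and Ier3 by 1.19 (adjusted p = 4.7e-05). Fos was not called (log2 1.48, adjusted p = 0.19), nor was Myc (log2 -0.65, adjusted p = 0.12). Of 25 genes from RAS to ERK, 0 were called by edgeR and 7 lay at an unadjusted p under 0.05, as did 25.5% of all genes, with a median log2 of -0.01. None of 4 FGF receptor genes, 11 other atypical phosphatases or 15 genes of the p38 and JNK cascades was called by edgeR in this comparison, with 2, 4 and 6 at an unadjusted p under 0.05. The cascade gene Rap1b, named after its values were seen, had 0.30 (adjusted p = 0.00311), below the limit on fold change, and was called higher in PSD + restraint than in PSD mice (log2 0.36, adjusted p = 0.00168). Of the 12 genes tested among 15 ERBB receptors and ligands, 2 rose, namely Hbegf, a ligand of the epidermal growth factor receptor (log2 0.84, adjusted p = 0.00043), and Nrg3 (log2 0.91, adjusted p = 0.00504), while the receptor Egfr had -0.04 (adjusted p = 0.77). Of 4 other MAP kinase phosphatases tested, Dusp16 (log2 0.35, adjusted p = 0.00157) and Dusp8 (log2 0.74, adjusted p = 0.0177) rose. Of 26 other inhibitors of RAS-ERK signalling, Erf, a repressor that ERK exports from the nucleus, rose by 0.81 (adjusted p = 4.62e-07) and the RAS GTPase activator Rasal1 by 0.41 (adjusted p = 0.0315).

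**Figure D4:**
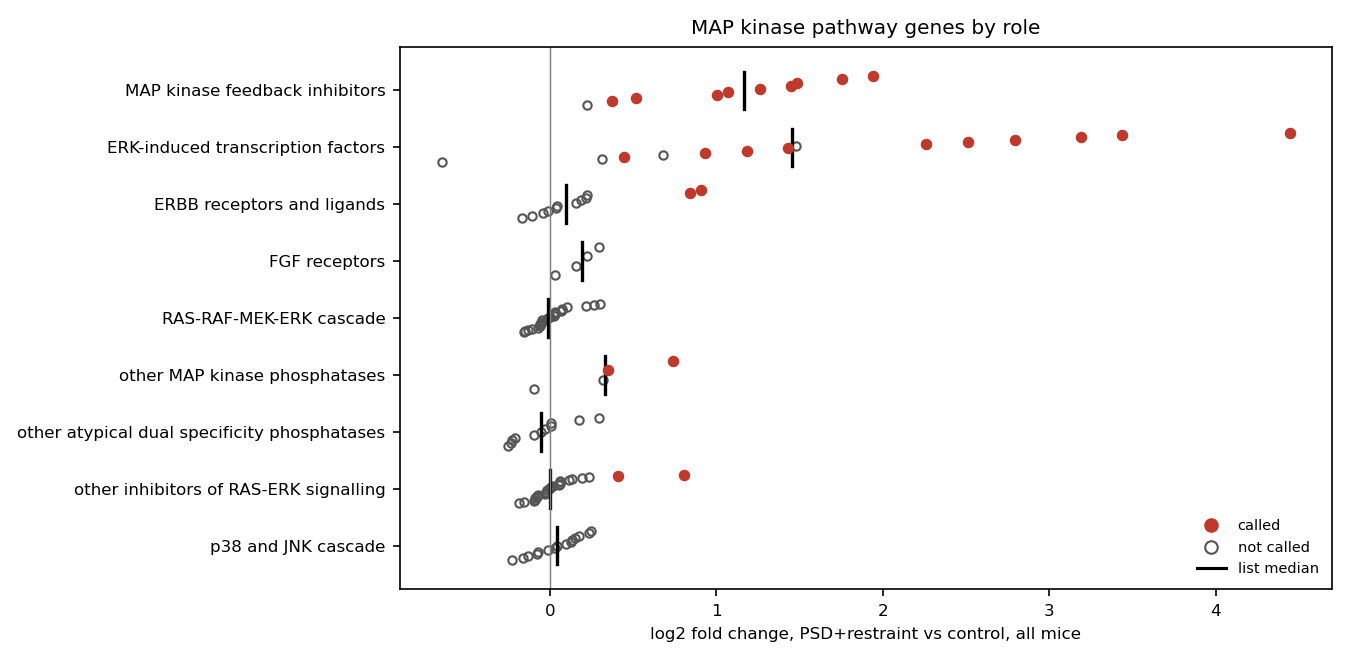
Log2 fold change after PSD + restraint against controls in the model of all mice for each gene tested, in rows by role, with called genes filled and a bar at the median of each list. The medians of the inhibitors (1.17) and of the ERK-induced transcription factors, counted with Ier3 (1.45), lie to the right of 0, and the 25 genes of the RAS to ERK cascade gather around 0.

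After restraint alone, 6 of the 14 ERK-induced genes and 1 of the 26 other inhibitors (Erf, log2 0.52) were called higher in all mice, against 0.935% of all genes. In the other lists edgeR called none, and 6 of their genes, like 10.3% of all genes, lay at an unadjusted p under 0.05. Within the sexes, Egr3 rose by 3.03 (adjusted p = 0.000321) in restrained females and 3.73 (adjusted p = 0.000488) in restrained males, and Fosb by 4.06 (adjusted p = 0.000748) and 4.29 (adjusted p = 0.00297). After PSD + restraint Hbegf rose from 1.97 ± 0.523 to 3.83 ± 0.525 CPM in females (SD, n = 4; log2 0.97, adjusted p = 0.0391) and from 2.63 ± 0.251 to 4.30 ± 0.509 CPM in males (log2 0.72, adjusted p = 0.0447). In that comparison Erf rose by 0.79 in females (adjusted p = 0.00017) and by 0.82 in males (adjusted p = 0.00863), and Dusp8 by 1.19 in males (adjusted p = 0.0202). After PSD alone, the model of all mice called Hbegf (log2 0.62, adjusted p = 0.044) and Etv4, an ETS factor of the FGF pathway (log2 0.76, adjusted p = 0.04), where 0.565% of all genes were called higher. Neither was called after PSD within females or within males.

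Genes with the most similar profile over the 8 group means were found for the 9 inhibitors called in all mice, as the smallest root mean square difference of log2 CPM after each gene was centred on its own mean. The nearest to Dusp14 was B3galt2, a galactosyltransferase gene, at 0.17 log2 units, and the nearest to Dusp5 was Midn at 0.189. Dusp4 was closest to Enc1 at 0.154 and Col23a1 at 0.167, and Dusp2 to Kif18a at 0.224. For Spry4, a transcript without a gene symbol came first at 0.121 and Procr, the protein C receptor gene, second at 0.142. Transcripts without a symbol were also nearest to Dusp1, at 0.276, and to Errfi1, at 0.203. Dusp6 lay nearest Gltscr2 at 0.0599 and Spry1 nearest Wdr66_ (spelled as in the count table) at 0.0393, which are smaller distances for genes whose own groups differ little.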

How the data were processed

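The counts deposited by the authors were made from stranded mRNA reads aligned to mm10 with MapSplice and counted on UCSC gene models with HTSeq 0.9.1 (intersection-nonempty), without normalization. A second deposited table, counts divided by 1 size factor per mouse, was not used. The study filtered genes on TPM, which could not be done from these tables, so the filter was edgeR's filterByExpr, which kept the genes tested (18059 in females, 18271 in males and 18936 in all mice).

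The main test was the quasi-likelihood test of edgeR 4.0.16 (with limma 3.58.1) in R 4.3.3, and DESeq2 1.42.0 served as an alternative. Fits by sex had terms for PSD, for restraint and for the interaction, the model of all mice added sex, and sex differences came from a model with 1 mean per group. Genes were called at an adjusted p of at most 0.05 and a log2 fold change of 0.32 or more in either direction. TMM factors for CPM were taken over all genes, and a prior count of 2 entered log2 CPM. Groups came from the sample labels. In all 37 pairs, mice of a group differed by more than counting noise (lowest chi-square per degree of freedom 6.43).

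The 10 genes and the pathway lists were chosen with earlier results of these data known. The text names all 10, up to 3 called genes of each list in all mice after PSD + restraint and up to 2 in each comparison within a sex, and the genes of nearest profile. Genes named outside this rule (Fos, Myc, Egfr, Rap1b, Erf after restraint and Etv4) were chosen after their values were seen. Positions and promoters are from RefSeq (GRCm38.p6) and transcript lengths from GENCODE M21.

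The tests were checked on simulated counts with 200 genes changed by 1 log2 unit. For PSD + restraint against controls, edgeR recovered 149 of them in females (17904 genes, 4 false calls), 153 in males (18172 genes, 2 false calls) and 169 in all mice (18671 genes, 6 false calls). DESeq2 recovered 155 in females (18 false calls), 158 in males (14 false calls) and 159 in all mice (0 false calls). For the sex difference in the response to PSD + restraint, edgeR recovered 127 (18648 genes, 8 false calls) and DESeq2 135 (14 false calls). Alternatives were DESeq2 with the study's settings, DESeq2 size factors, library size alone, other filters, no fold threshold, edgeR's robust option, only the groups compared, a replicate block, an intermediate lobe score as a term, and each mouse left out. A forebrain score as a term and a fit without male control 1 and female PSD mouse 1 were chosen after seeing the data.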

Additional observations from a re-analysis of the deposited data

Results flagged for a closer look

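Of 50 groups of 4 mice examined over the 10 genes, 6 held a mouse set apart from the rest of its group by Dixon's criterion, which chance meets in about 1 of 20 groups. Dusp1 had 130 CPM in female PSD mouse 2, where the other 3 had 22.0 to 37.4 CPM. In male control 2 it had 38.9 CPM, against 16.1 to 18.9 CPM in the other controls, and this mouse also stood apart for Spry2, at 13.2 CPM against 9.98 to 10.4 CPM. Female control 1 had 1.71 CPM of Dusp2, where the others had 0.271 to 0.371 CPM. Female PSD + restraint mouse 1 had 6.86 CPM of Dusp5, against 4.94 to 5.21 CPM. Female control 4 was low for Spry4, at 3.14 CPM where the others had 4.62 to 4.78 CPM. The groups of 2 or 3 males could not be examined in this way.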

How the results depend on the processing

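No called value of the 10 genes changed sign under any alternative. The number of the 10 genes called moved beyond 1.5 times in the following cases, and the cause was not tested. With the intermediate lobe score as a term, 1 gene was called in females after restraint (3 without the term), 1 after PSD + restraint (6), 3 in males after PSD + restraint (7), 0 in all mice after PSD (1), 5 in all mice after PSD + restraint (9) and 0 between control females and males (1). The shares of all genes called in these fits were 0.426%, 0.487%, 2.05%, 0.116%, 3.19% and 9.28%. With only the 2 groups compared in the fit, there were 1 in females and 2 in males after restraint and 4 in males after PSD + restraint (0.307%, 0.259% and 1.77% of all genes). DESeq2 with the study's settings called 1 in females and 2 in all mice after PSD (2.2% and 1.22%). The robust option of edgeR gave 2 in males after restraint and 1 between PSD + restraint and PSD males (0.23% and 0.29%). In fits chosen after seeing the data, the forebrain score left 0 in all mice after PSD (0.174%), and leaving out male control 1 and female PSD mouse 1 left 0 there (0.239%) and 0 between control females and males (8.7%).

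Deviations from the group mean were correlated between mice of the same sex in other groups. Same-numbered mice had r from -0.35 to 0.33 (39 pairs, 4 over 0.1). Mice of other numbers had r from -0.34 to 0.48 (110 pairs, 22 over 0.1), and 6 mice correlated best with their own number. With so few mice per group, these values cannot settle whether the numbers pair the mice. With the replicate block, 0 genes were called in males after restraint, 4 in males after PSD + restraint, 1 between PSD + restraint and PSD males and 0 in all mice after PSD (0.0219%, 0.805%, 0.0328% and 0.211% of all genes).

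With each mouse left out in turn, females had 1 to 3 genes called after restraint, 0 to 1 after PSD, 4 to 6 after PSD + restraint and 2 to 3 between PSD + restraint and PSD. Males had 1 to 4 after restraint, 0 after PSD, 3 to 8 after PSD + restraint and 1 to 3 against PSD. All mice had 3 to 5 after restraint, 0 to 2 after PSD, 7 to 9 after PSD + restraint, 3 to 5 against PSD and 0 to 1 against restraint (Spry2, without female restrained mouse 2). Control females and males differed in 0 to 1, and the interaction and the sex differences in response gave 0. With library size alone, group means moved beyond their SD for Dusp6 in control females (13 CPM), Spry2 in PSD males (12.8 CPM) and Spry4 in restrained males (5.07 CPM) and PSD males (5.77 CPM). Male restraint, with 2 mice, and Dusp2, with few counts, limit what these data can show.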
